A study of Homo sapiens with 6 samples.

Results

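ZNF410 and the 9 genes of the CHD family, CHD1 to CHD9, were followed in K562 cells in which ZNF410 had been targeted by CRISPR guides. The 10 genes were taken by symbol from tables of 26485 gene symbols, and all 10 were found. The question was whether any CHD paralogue rose where CHD4 fell. K562 is an established line from human chronic myeloid leukaemia with erythroid features. RNA-seq of 6 libraries was deposited, in 3 groups of 2 that each carry replicate numbers 1 and 2. The control group received the guide sgNeg2 and is labelled wild type. The other groups received sgRNA#1 or sgRNA#2 against ZNF410 and are labelled ZNF410 knockout, and the series text calls the knockouts cell lines. The labels do not say whether a line is a clone or a pool, nor whether libraries of a group came from separate cultures, so each p-value below measures only the spread between these libraries.

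ZNF410 is a transcription factor with a cluster of C2H2 zinc fingers. It is known for an unusually narrow set of direct targets, of which CHD4 is the best described, through repeated copies of its recognition motif upstream of the gene. CHD proteins pair chromodomains, which bind histone tails, with an Snf2-type ATPase that moves nucleosomes. CHD3, CHD4 and CHD5 are alternative ATPases of the NuRD corepressor complex, which also holds histone deacetylases, and in erythroid cells NuRD is known as a repressor of the fetal globin genes. CHD1 and CHD2 are tied to transcribed chromatin, and CHD6 to CHD9 form the remaining subgroup.

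Whole-number counts over genes totalled 8788816 to 9537470 per library, and CPM below are counts scaled to a common library size with edgeR's TMM factors. Each member was tested in a fit over all 12282 genes that passed a filter on low counts, with the replicate number as a block, by edgeR's quasi-likelihood test with Benjamini-Hochberg adjustment. Of these genes 226 had an adjusted p under 0.05 for knockout against control (1.84%), 146 of them higher (1.19%) and 80 lower (0.651%). The replicate number moved far more genes, since 5609 (45.7%) differed between numbers 2 and 1. All 10 erythroleukaemic markers were detected, with a summed level of 19123.82 and 45582.23 TPM (a level per transcript length, scaled within each library) in the controls and 24705.37 to 62123.18 in the knockouts. The embryonic and fetal globin genes HBG1, HBG2, HBE1 and HBZ, which are among these markers, rose in the knockouts, by 0.32 to 0.92 on the log2 scale with edgeR adjusted p from 6.42e-06 to 0.00559. Knockout and control libraries overlapped for each of these globin genes. In control replicate 1 HBG1 had 989 counts and HBG2 8764, against 22844.63 and 37340.37 estimated counts in the second deposited table. HBZ had 90 CPM in control replicate 1 against 113 and 102 CPM with sgRNA#1 and sgRNA#2. In replicate 2 HBZ had 307 CPM against 613 and 563 CPM. The markers GATA1 (0.11), TAL1 (0.21), KLF1 (0.14), TFRC (0.03) and LMO2 (-0.11) were not called. Of 15 markers of other cells, DCN of fibroblasts and MS4A1 of B cells had 0 counts in every library. The summed TPM of the 3 fibroblast markers was 0.13 and 0.22 in the controls and 0.35 to 0.49 in the knockouts, and COL1A1 was called higher on 0 and 1 counts against 8 to 14. The rise of this sum was that of COL1A1, since COL1A2 had 5 and 3 counts in the controls and 2 to 6 in the knockouts. The 3 T cell markers summed to 10.36 and 52.96 TPM in the controls and to 6.78 to 43.75 in the knockouts, nearly all of it CD3D, which was higher in each number 1 library. For knockout against control CD3D had a log2 fold change of -0.70 (95% interval -1.19 to -0.22, edgeR adjusted p 0.164). The 3 monocyte markers summed to 3.16 and 16.78 TPM against 3.61 to 15.89, the B cell markers to 0.19 and 1.00 against 0.35 to 1.15, and the epithelial markers to 227.35 and 243.12 against 229.19 to 248.56. Within the epithelial sum the log2 fold changes were -0.16 for EPCAM, 0.21 for KRT19 and 0.19 for CDH1 (edgeR adjusted p 0.243, 0.211 and 0.918). The part of the markers of other cells in the results was not tested.

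The core of the ZNF410 motif, CATCCCATA, was searched on both strands in the RefSeq start windows of 300 bases (250 before and 50 after each start, GRCh38.p14), to show where the letters stand near genes measured here. It occurred in 41 of 35116 windows (0.117%), and in none of the windows of the 7 members that have one, ZNF410, CHD1, CHD2, CHD3, CHD4, CHD8 and CHD9. The windows of CHD4, CHD3 and CHD8 in that table start 928, 3993 and 18848 bases inside the gene's outermost RefSeq start, so they do not cover the sequence upstream of these genes. Among genes tested for expression, 4 had the motif in a window, and their sites follow 5′ to 3′ on the gene's strand, with the motif or its reverse complement TATGGGATG in capitals.
CAPN1, chr11:65181160-65181188, + strand: tgcccaacccCATCCCATAggatgcacgc
HSPG2, chr1:21937536-21937560, - strand: ccgtccCATCCCATActccaggccg
OPTN, chr10:13100041-13100069, + strand: atgggcggggTATGGGATGggcggggccc
ZNF675, chr19:23687387-23687415, - strand: acaaatacccTATGGGATGggcctggctc
Of these, 0 of 4 were called in the knockout by edgeR, beside 1.84% of all tested genes, so the count is no result about genes with the motif. Their log2 fold changes were -0.03 for CAPN1, -0.11 for HSPG2, 0.51 for OPTN and -0.21 for ZNF675, with adjusted p from 0.125 to 0.885 by edgeR. Their median of -0.07 stood beside 0.00 over 9052 tested genes with a window. A single match of these letters is a description of the window and not a binding site.

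ZNF410 RNA fell in the knockout libraries but was not lost. The gene lies on chromosome 14 (73886617 to 73932511, + strand, GENCODE 29 on GRCh38). It had 38.2 CPM in control replicate 1 and 34.0 CPM in control replicate 2. With sgRNA#1 it had 19.3 and 24.5 CPM in replicates 1 and 2, and with sgRNA#2 it had 17.0 and 20.6 CPM. All 4 knockout libraries lay below both controls, a placement shared by 4.40% of tested genes, while 5.05% lay wholly above. The log2 fold change for knockout against control was -0.83 (SE 0.125, 95% interval -1.10 to -0.56, edgeR adjusted p 0.00226), a level 0.563 times that of the control. Without the replicate block it was -0.82 with an adjusted p of 1. The remaining level was 50.5% and 44.5% of the same-numbered control in replicate 1, with sgRNA#1 and sgRNA#2, and 72.2% and 60.8% in replicate 2.

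The fall of ZNF410 was larger by value in replicate 1, but that difference did not pass the test. In a fit that let the knockout difference depend on the number, chosen after the values were seen, it was -1.07 (SE 0.154) in replicate 1 and -0.59 (SE 0.152) in replicate 2, where the edgeR adjusted p was 0.0794. The difference between these was 0.49 (95% interval 0.03 to 0.95, unadjusted p 0.0392 by edgeR's quasi-likelihood test), and its adjusted p was 0.562. Only 0.244% of tested genes had such a difference with an adjusted p under 0.05. Leaving out control replicate 1 gave -0.59 with an adjusted p of 0.076, and leaving out control replicate 2 gave -1.08. In the estimated counts of the second deposited table ZNF410 fell by 1.00 on the log2 scale (SE 0.103, edgeR adjusted p 1.86e-04). Exons of ZNF410 overlap those of AC005520.1 by 2528 bases and of PTGR2 by 211 bases on the same strand. On the other strand they overlap FAM161B by 978 bases and the antisense gene AC005480.1 by 380 bases, and the strand setting of the counting is not given in the sources used here. The mean transcript length of ZNF410 in the second table moved by 0.858% between libraries (2599.17 to 2621.47 bases).

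CHD4, the main NuRD ATPase, fell to about the same level in every knockout library, and no other tested gene had a smaller p. It lies on chromosome 12 (6570082 to 6614524, - strand). The controls had 590 and 666 CPM in replicates 1 and 2. The libraries with sgRNA#1 had 295 and 318 CPM, and those with sgRNA#2 had 284 and 326 CPM. The groups did not overlap, and 4.40% of all tested genes likewise had every knockout library below both controls. The lower control of CHD4 stood well above the highest knockout library. The log2 fold change was -1.04 (SE 0.0467, 95% interval -1.14 to -0.94, edgeR adjusted p 1.38e-08), a level 0.487 times that of the control with an interval of 0.454 to 0.522. Without the replicate block the value was -1.04 and the adjusted p was 0.127.

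**Figure D1:**
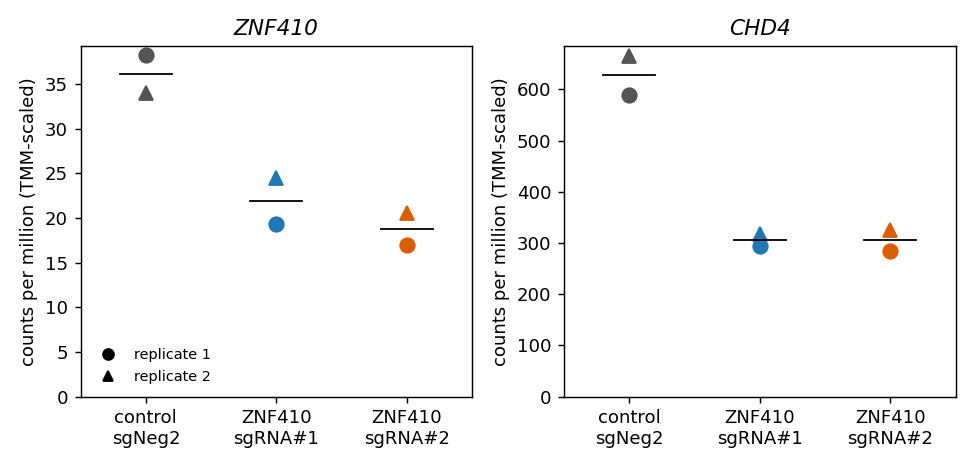
Level of ZNF410 and CHD4 in each library in TMM-scaled CPM, by guide, with circles for replicate 1, triangles for replicate 2 and a line at the mean of 2 libraries. Every knockout library lies below both controls for both genes, and the CHD4 range of sgRNA#1 (295 to 318) lies inside that of sgRNA#2 (284 to 326).

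The fall of CHD4 was nearly equal across guides and numbers. Relative to the control sharing its number, CHD4 stood at 50.1% and 47.7% with sgRNA#1 and at 48.1% and 48.9% with sgRNA#2. By guide the log2 fold change was -1.03 (SE 0.0576) and -1.04 (SE 0.0577), measured against the same 2 controls. The difference between guides was -0.01 (95% interval -0.13 to 0.12), and 0.0896% of genes differed between guides with an adjusted p under 0.05. The knockout difference was -1.03 in replicate 1 and -1.05 in replicate 2, and these differed by -0.02 (95% interval -0.22 to 0.17). Relative to its control, CHD4 was as low in replicate 2, where ZNF410 RNA stood at 72.2% and 60.8%, as in replicate 1, where it stood at 50.5% and 44.5%. That difference of ZNF410 between numbers had an edgeR adjusted p of 0.562, and ZNF410 protein was not measured. Whether the fall of CHD4 follows the degree of ZNF410 loss was not tested. Exons of CHD4 share 5964 bases with the same-strand model AC006064.6 and 1295 bases with the antisense gene AC006064.2. The estimated counts gave -1.06 (SE 0.0466).

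None of the CHD paralogues was called higher or lower in the knockout. Of the 8 genes besides CHD4, 7 passed the filter on low counts and 0 of 7 had an adjusted p under 0.05 by edgeR, against 1.84% of all tested genes. At an unadjusted p under 0.05 there was 1 of 7, CHD7, on the lower side, beside 12.9% of all tested genes, and the DESeq2 Wald test gave 0 of 7, beside 6.99%. In each of the 7, knockout and control libraries overlapped, as in most tested genes, of which 5.05% lay wholly above and 4.40% wholly below the controls. The same count of 0 held with each guide alone, where 0.887% of genes were called with sgRNA#1 and 1.38% with sgRNA#2. Some 95% log2 intervals by guide, which are not adjusted for the number of genes, did leave out 0. With sgRNA#2 those of CHD8 (0.07 to 0.38) and CHD9 (0.01 to 0.33) lay above it. With sgRNA#1 that of CHD7 (-0.39 to -0.04) lay below it. For both guides together the interval of CHD8 reached highest, to 1.23 times the control level. With sgRNA#2 alone the upper limits were 1.3 for CHD8, 1.27 for CHD6, 1.26 for CHD9 and 1.24 for CHD3.

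**Figure D2:**
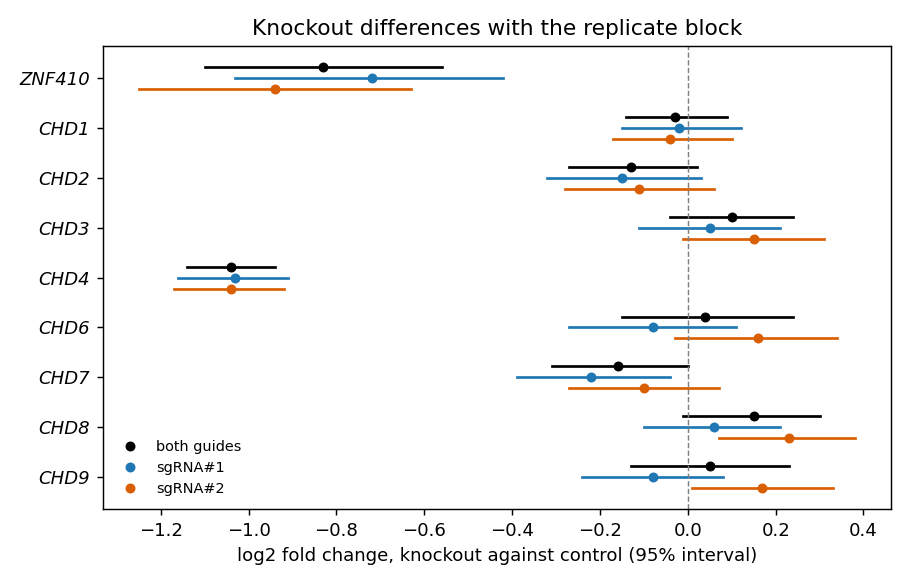
Log2 fold change of ZNF410 and the 8 tested CHD genes against control, with 95% intervals from the edgeR fits, for both guides together (black), sgRNA#1 (blue) and sgRNA#2 (orange). CHD4 and ZNF410 lie left of 0 with each guide, and the other genes lie between -0.22 and 0.23.

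CHD3, the closest relative of CHD4 with expression in these cells and an alternative ATPase of NuRD, is on chromosome 17 (7884806 to 7912760, + strand). It had 71.5 and 92.1 CPM in the controls, 75.4 and 94.3 CPM with sgRNA#1 and 77.9 and 104 CPM with sgRNA#2. In CPM each knockout library was slightly above the control of its own number, at 102% to 113%, while the groups overlapped. In TPM the difference of sgRNA#1 replicate 2 from its control was -1.23. For knockout against control the fit used the counts. The log2 fold change of CHD3 was 0.10 (95% interval -0.04 to 0.24, edgeR adjusted p 0.565), with an upper limit of 1.18 times the control level. With sgRNA#2 alone it was 0.15 (95% interval -0.01 to 0.31, edgeR adjusted p 0.45).

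CHD5, the NuRD ATPase best known from the nervous system, was close to absent. It had 7 and 1 counts in the controls, 3 and 3 with sgRNA#1, and 0 and 3 with sgRNA#2. The library with 0 counts allows up to 0.323 CPM by counting error alone, taking 3 counts as the limit. CHD5 therefore failed the filter and received no test, and its TPM did not exceed 0.06 in any library.

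CHD1, a reader of the histone mark of active promoters, had the highest TPM of the paralogues in the controls. It had 181 and 233 CPM in the controls, 187 and 221 CPM with sgRNA#1, and 181 and 221 CPM with sgRNA#2. The control and knockout libraries interleaved by replicate number. The change on the log2 scale was -0.03 (95% interval -0.14 to 0.09, edgeR adjusted p 0.892).

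CHD2, its close relative, had 95.4 and 90.6 CPM in the controls, 80.6 and 87.7 CPM with sgRNA#1, and 81.7 and 91.2 CPM with sgRNA#2. Its lower values sat in the replicate 1 knockouts, at 84.5% and 85.7% of their control, against 96.7% and 101% in replicate 2. Over all libraries the log2 fold change was -0.13 (95% interval -0.27 to 0.02, edgeR adjusted p 0.465). The mean transcript length of CHD2 varied by 4.93% between libraries, the widest of the members.

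CHD7, the gene mutated in CHARGE syndrome, had 226 and 253 CPM in the controls, 222 and 192 CPM with sgRNA#1, and 235 and 214 CPM with sgRNA#2. The replicate 1 knockouts matched their control at 98.2% and 104%, and the replicate 2 knockouts stood at 75.8% and 84.6%. The log2 fold change over both numbers was -0.16 (95% interval -0.31 to -0.00, unadjusted p 0.0493 and adjusted p 0.383 by edgeR's quasi-likelihood test). By number it was 0.01 (SE 0.082) and -0.32 (SE 0.0806, edgeR adjusted p 0.0695), and the difference of -0.33 had an adjusted p of 0.379.

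CHD8, a paralogue mutated in a form of autism, had 102 and 134 CPM in the controls, 105 and 140 CPM with sgRNA#1, and 126 and 149 CPM with sgRNA#2. In CPM all 4 knockout libraries were above the control of their own number, at 104% to 124%, though 2 of them stayed below control replicate 2. In TPM the difference of sgRNA#1 replicate 2 from its control was -0.61. The log2 fold change was 0.15 (95% interval -0.01 to 0.30, edgeR adjusted p 0.423). With sgRNA#2 alone it was 0.23 (SE 0.0721, unadjusted p 0.00678 and adjusted p 0.174 by edgeR's quasi-likelihood test), and with sgRNA#1 it was 0.06 (SE 0.0726). The difference between guides was 0.17 (95% interval 0.02 to 0.32) with an edgeR adjusted p of 0.999.

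CHD6 and CHD9 also had higher values with sgRNA#2 than with sgRNA#1 in both numbers. CHD6 had 78.0 and 63.8 CPM in the controls, 71.9 and 61.9 CPM with sgRNA#1, and 78.3 and 78.9 CPM with sgRNA#2. CHD9 had 69.9 and 95.8 CPM in the controls, 66.8 and 90.1 CPM with sgRNA#1, and 77.5 and 109 CPM with sgRNA#2. Against the control the log2 fold changes with sgRNA#1 and sgRNA#2 were -0.08 and 0.16 for CHD6 (edgeR adjusted p 0.84 and 0.524) and -0.08 and 0.17 for CHD9 (adjusted p 0.81 and 0.359). The difference between guides was 0.24 for CHD6 (SE 0.0877, edgeR adjusted p 0.999) and 0.25 for CHD9 (SE 0.0741, edgeR adjusted p 0.976), so neither passed the test. Over both guides the log2 fold change was 0.04 (95% interval -0.15 to 0.24) for CHD6 and 0.05 (95% interval -0.13 to 0.23) for CHD9.

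**Figure D3:**
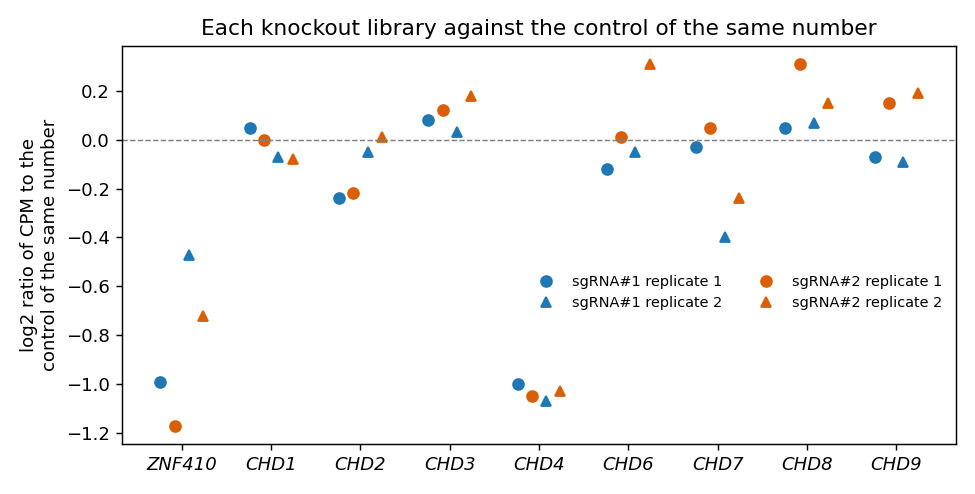
Log2 ratio of each knockout library's CPM to the control of the same replicate number, for ZNF410 and the 8 tested CHD genes, coloured by guide, with circles for replicate 1 and triangles for replicate 2. The CHD4 points lie close together, at 47.7% to 50.1% of the control, those of ZNF410 spread from -1.17 to -0.47, and those of CHD7 split by replicate number.

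Levels can be compared between genes in TPM. In the controls CHD4 led with 125.76 and 159.11 TPM, followed by CHD1 (34.84 and 50.97), CHD7 (25.21 and 31.85), CHD8 (16.39 and 24.85), CHD3 (13.15 and 18.10), CHD2 (14.19 and 14.40), CHD9 (8.56 and 12.64), CHD6 (9.13 and 9.15) and CHD5 (0.01 and 0.06). The control ranges of CHD8 and CHD3, of CHD3 and CHD2, and of CHD9 and CHD6 overlapped. Within libraries CHD8 was above CHD3 in 6 of 6, CHD3 above CHD2 in 5 of 6 and CHD9 above CHD6 in 3 of 6, so the last order was not resolved. In the knockouts CHD4 had 62.85 to 76.31 TPM and was still above CHD1, at 37.01 to 50.16 TPM. ZNF410 itself had 21.17 and 22.35 TPM in the controls and 9.35 to 13.15 TPM in the knockouts.

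CHD4 made up 50.9% and 49.6% of the summed TPM of the CHD family in the controls, and 32.6% ± 0.887 (SD, n = 4) in the knockouts. Within CHD3, CHD4 and CHD5 its share went from 90.5% and 89.8% to between 79.0% and 82.4%. The summed level of the family was 247.29 and 321.08 TPM in control replicates 1 and 2. It was 186.23 and 210.20 TPM with sgRNA#1 and 197.88 and 237.73 TPM with sgRNA#2. As a percentage of the same-numbered control the sum stood at 73.7% ± 6.07 (SD over 4 libraries that share 2 controls), and all 4 knockout libraries were below both controls. The mean percentage was 69.8% without control replicate 1 and 77.7% without control replicate 2. These shares are descriptions of the deposited TPM and were not tested.

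**Figure D4:**
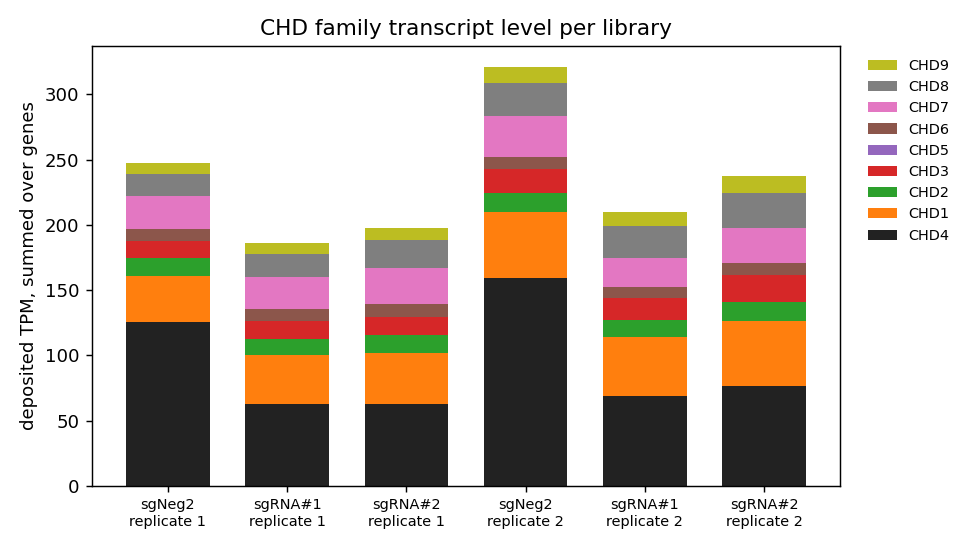
Deposited TPM of CHD1 to CHD9 summed per library, stacked by gene with CHD4 at the base, libraries ordered by replicate number. The CHD4 part shrinks from 125.76 to 62.92 and 62.85 TPM in replicate 1 and from 159.11 to 68.60 and 76.31 TPM in replicate 2, while the stack above it stands at 87.4% to 111% of that in the same-numbered control.

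The summed change of the other paralogues was smaller than the loss of CHD4 in every knockout library. CHD4 lost 62.84 and 90.51 TPM with sgRNA#1 in replicates 1 and 2, and 62.91 and 82.80 TPM with sgRNA#2. The summed change of the other 8 genes was 1.78 and -20.37 TPM with sgRNA#1, and 13.50 and -0.55 TPM with sgRNA#2. Their sum was 99.9% ± 9.73 (SD over 4 libraries that share 2 controls) of the same-numbered control. This mean was 93.5% without control replicate 1 and 106% without control replicate 2. If all 7 tested paralogues stood at the upper end of their 95% intervals for both guides together, they would add 13.7 TPM to the control mean, which is 18.8% of the 73.1 TPM that CHD4 loses at its fitted fold. With the intervals of sgRNA#1 alone the sum would be 10.5 TPM (14.4% of the loss), and with those of sgRNA#2 alone 20.3 TPM (27.7%). These sums rest on the fits with the replicate block and set no limit for a single library. Fewer cells of a kind and less RNA per cell cannot be told apart in these bulk libraries.

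Between replicate numbers 2 and 1, 5 of the 9 tested members were called by edgeR, which is near the 45.7% of all tested genes. All 5 were higher in number 2, as were 21.8% of all tested genes. They were CHD1 (0.30), CHD3 (0.37), CHD4 (0.16), CHD8 (0.34) and CHD9 (0.46), as log2 fold changes with adjusted p from 2.29e-04 to 0.00974. ZNF410 (0.13), CHD2 (0.07), CHD6 (-0.16) and CHD7 (-0.06) were not called. What the number stands for is not given in the labels.

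Of 12 NuRD partner genes, 0 of 12 were called by edgeR, beside 1.84% of all tested genes, and 1 had an unadjusted p under 0.05, beside 12.9%. Counts this small lie near the background. Their log2 fold changes ran from -0.13 to 0.13, with a median of -0.00 beside 0.00 over all tested genes. The deacetylases HDAC1 and HDAC2 had 0.05 and -0.05, and the histone chaperones RBBP4 and RBBP7 had 0.01 and -0.00. The MTA scaffolds MTA1, MTA2 and MTA3 had -0.00, 0.05 and -0.08, the methyl-CpG-binding domain proteins MBD2 and MBD3 had -0.04 and -0.05, and CDK2AP1 had 0.08. GATAD2A, which links the deacetylase part of NuRD to the CHD part, had 0.13 (95% interval 0.01 to 0.26, edgeR adjusted p 0.345). Its relative GATAD2B had -0.13 with a wide interval of -0.88 to 0.62, on 25 to 55 counts per library. These are 2.5% to 5.95% of its estimated counts, which were 869 to 1025 per library, so the whole-number table holds little of this gene.

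In the ChAHP complex CHD4 works with ADNP and HP1 proteins. Of 6 ChAHP partners 0 were called by edgeR (1.84% of all tested genes) and 1 (12.9% of all) had an unadjusted p under 0.05, the HP1 gene CBX5, at 0.21 (SE 0.0681, adjusted p 0.166). Of 20 other Snf2-family ATPases 19 were tested and 0 were called, with 2 at an unadjusted p under 0.05, HLTF (0.23, edgeR adjusted p 0.165) and SMARCAL1 (-0.25, edgeR adjusted p 0.213). SMARCA1 was not tested, with 0 to 2 counts per library. The counts of the ATPases stand beside the same shares of all genes, and these lists cannot be told from the background by them. The medians of these lists were 0.01 and 0.00.

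Genes whose level followed CHD4 most closely were ranked by Pearson's r over the 6 libraries, after the mean of each replicate number was removed, among 9965 genes whose counts averaged 50 or more. The first 5 were MTHFSD (r = 0.998), DRAP1 (0.996), NBAS (0.996), MEF2C (0.995) and CPSF2 (0.994). Of these MEF2C, a myeloid and muscle transcription factor, was called lower in the knockout, at -0.50 (SE 0.0711, edgeR adjusted p 0.00148). MTHFSD (-0.47), DRAP1 (-0.19), NBAS (-0.19) and CPSF2 (-0.13) were not called, and r does not measure the size of a change. ZNF410 ranked 225 with r = 0.936, and CHD3 and CHD8 had r = -0.737 and -0.659. For ZNF410 the first 5 were TRIB3 (0.999), UBA2, KIAA1551, SMIM20 and THRAP3, and KIAA1551 was called lower at -0.39 (SE 0.0678, edgeR adjusted p 0.0066). TRIB3 (-0.19), UBA2 (-0.17), SMIM20 (-0.45) and THRAP3 (-0.09), as log2 fold changes, were not called. With 6 libraries that share 2 controls these values describe the libraries only.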

How the data were processed

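RNA-seq libraries of K562 cells were deposited as 2 tables each. The first, as deposited, lists a whole-number count for each gene symbol, plus 5 rows without a gene that held 61.6% to 62.6% of each total and were left out. The second, per the file headers, has columns for the expected count (here called estimated count), TPM and FPKM. The authors normalized TPM and FPKM for length and library size, and deposited the estimated counts without such scaling, per the file headers. The submitters' processing notes name Trim Galore, HISAT2 2.2.1, SAMtools 1.9, HTSeq 0.6.1, RSEM 1.3.2, DESeq2 1.36.0 and hg38, without their roles, and no strand setting. Estimated counts, rounded, totalled 17228254 to 18689560 per library, and summed over the 6 libraries the whole-number counts of each member were 0.519 to 0.654 of its estimated counts.

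The tests used edgeR 4.0.16 under R 4.3.3 (TMM, filterByExpr by group, quasi-likelihood F-test, Benjamini-Hochberg adjusted p under 0.05) with the replicate number as a block, because the differences were to be paired by number. Deviations of same-numbered libraries from their group means correlated at r = 0.811, 0.757 and 0.824 over 9966 genes whose counts averaged 50 or more. The pairing follows the number in the labels, which do not explain it, and these correlations describe the same data that were tested. Guides were tested in a fit of 3 group means. Intervals are 95% from the SE and the fit's degrees of freedom. The fits were tested on simulated data, in which false calls exceeded the nominal share. Members, lists and tests were chosen with earlier results of these data known. Genes were named by rule: all members, all NuRD partners, called genes of each list (at most 5), and the 5 most like CHD4 and ZNF410. An item that this rule would name is not reported here. CBX5, HLTF, SMARCAL1, SMARCA1, the markers that were not called (GATA1, TAL1, KLF1, TFRC, LMO2, CD3D, DCN, COL1A2, EPCAM, KRT19, CDH1 and MS4A1) and the 4 motif genes were named after their values were seen. Alternatives were no block, DESeq2 1.42.0 size factors and Wald test, upper-quartile scaling, no filter, estimated counts, limma 3.58.1 on log2(FPKM + 1) or log2(FPKM + 0.1) with a mean FPKM of at least 0.5 or no filter, and leaving out each library.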

Additional observations from a re-analysis of the deposited data

How the results depend on the processing

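CHD4 and ZNF410 kept their direction in every setting tried, and the count of called CHD paralogues was 0 in all of them. Without the replicate block neither gene passed the threshold in edgeR: CHD4 stood at -1.04 (adjusted p 0.127) and ZNF410 at -0.82 (adjusted p 1), and 0 genes were called there against 226 with it (284 and 1590 at an unadjusted p under 0.05). By guide, too, neither passed without the block. ZNF410 stood at -0.91 (adjusted p 0.0996) by limma on log2(FPKM + 1) with no filter, and between -1.08 and -0.59 when each library was left out in turn, missing the threshold without control replicate 1. CHD4 ranged from -1.06 to -1.03. The number of genes called was 387 in the estimated counts, 162 by DESeq2, 15 by limma with no filter, 146 without control replicate 1 and 141 without sgRNA#2 replicate 1. The cause was not tested. Over all settings the log2 fold change of CHD3 lay between 0.06 and 0.13 and that of CHD8 between 0.08 and 0.19, while CHD1, CHD6, CHD7 and CHD9 took both signs. The summed level of the family in the knockouts, as a percentage of the same-numbered control, was 74.2% with FPKM and 73.7% with TPM. CHD5, at 0 to 7 counts per library, was too low to test.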
